A study of Homo sapiens with 9 samples.

Results

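The genes described here are 38 members of the apoptosis machinery: proteins of the BCL2 family, caspases, death receptors with their adaptors, decoy receptors and a ligand, and the inhibitors that hold caspases in check. They were chosen by name, and all 38 were found among the 23619 gene symbols that were counted. By their textbook role, 24 members promote apoptosis and 10 oppose it, and 4 members (BCL2L12, BCL2L13, CASP1 and CASP4) were placed on neither side. Each clone was compared with the parental mean as a difference in log2 CPM, where CPM is a gene's count scaled to a common library total of 1e+06, with both sides kept apart.

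RNA was sequenced from RKO, a human colorectal carcinoma cell line, and from clones in which part of exon 9 of DIP2C had been removed by rAAV-mediated targeting. Parental RKO, with both DIP2C alleles intact, was represented by 2 samples. The DIP2C-/- clones E3 and C10 carry the deletion on both alleles, and 5 clones are labelled DIP2C+/-, with 1 targeted allele: A6-C9, A9-A12, F6-A7, G1-A5 and H9-A4. The study describes 3 DIP2C+/- clones, and the sources used here do not tie these to the 5 libraries, so the genotype of each rests on its label. No sample was treated with a drug or a death stimulus, and every sample was grown for 48 h after plating. Each knockout line grew from a single cell after neo selection and Cre-mediated removal of the cassette, and was sequenced as 1 library. Both DIP2C-/- clones were made by retargeting 1 DIP2C+/- clone, so they share an origin. Parental RKO went through neither selection nor cloning, so an effect of the genotype and an effect of cloning cannot be told apart here. The labels do not say whether the parental samples were separate cultures, so p-values measure the spread between these samples only.

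Apoptosis is reached by an extrinsic and an intrinsic route. In the extrinsic route a ligand of the TNF family binds a death receptor, whose death domain recruits adaptors such as FADD or TRADD and, through them, the initiator caspases CASP8 and CASP10. In the intrinsic route BH3-only proteins relay stress signals to the BCL2 family at the mitochondrion, where BAX and BAK1 open the outer membrane unless BCL2, BCL2L1 or MCL1 holds them back. Released cytochrome c then assembles APAF1 and CASP9 into the apoptosome, and the inhibitors of apoptosis are countered by DIABLO.

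The targeted gene was read first. DIP2C stood at 60.95 and 70.89 CPM in parental RKO, at 17.43 and 22.81 CPM in the DIP2C-/- clones, and at 33.64 to 56.28 CPM in the DIP2C+/- clones, all below both parental samples. In edgeR's fit of all 9 samples the log2 change of DIP2C was -1.71 in DIP2C-/- (adjusted p 0.0998) and -0.60 in DIP2C+/- (adjusted p 0.386), and both passed at 0.05 without H9-A4. The counts cover the whole gene and not the deleted stretch alone. H9-A4 had the highest DIP2C level of the 7 clones, 56.28 CPM, and its library also stood nearest to parental RKO. Its median absolute log2 difference from the parental mean over the 9585 genes of at least 10 CPM was 0.184, against 0.237 to 0.2969 in the other 6 clones and 0.168 between the parental samples themselves. Since H9-A4 decides which members are called, the change in the average of the clones is given with it (9 samples) and without it (8 samples) for each member printed in full. H9-A4 was set aside knowing that it lay nearest to parental RKO, so p-values without it carry that selection and apply to the remaining clones only. Total counts were 14772593 to 21486483 per sample. The epithelial keratins KRT8 and KRT18 were present in every sample, at 7.005 to 21.48 and 120.9 to 293.4 CPM. CDH1, CLDN4 and KRT19 were under 1 CPM in every sample, and EPCAM was at most 1.024 CPM except in H9-A4, at 3.784 CPM. The summed epithelial markers were at 230.3 to 287.4 CPM in parental RKO, 133.8 to 168.1 CPM in DIP2C-/- and 166.9 to 315.2 CPM in DIP2C+/-, and their part in the results was not tested. Markers of fibroblasts, blood cells and endothelium summed to at most 7.451, 2.445 and 4.775 CPM. In bulk RNA, fewer cells expressing a gene and less RNA of it per cell cannot be told apart.

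With all 9 samples, none of the 35 members that passed the filter on low counts was called in any contrast. The test was edgeR's quasi-likelihood F test, with p-values adjusted by Benjamini-Hochberg over all genes tested and a call at an adjusted p under 0.05. The share of all genes called was itself small: 0.00644% in DIP2C-/- against parental RKO, 0.0966% in DIP2C+/- against parental RKO, 0.18% in the average of the 7 clones and 0% between the genotypes. At an unadjusted p under 0.05 there were 5 members in the DIP2C-/- contrast, 4 in the DIP2C+/- contrast, 6 in the average and 1 between the genotypes. DESeq2's Wald test also called 0 members, with 3, 4, 6 and 1 at an unadjusted p under 0.05. Of all genes, it called 295, 191, 304 and 6 in the same contrasts. The share of all genes under an unadjusted 0.05 was not computed. Counts of members at that level, here and below, are therefore not read as a result about the members. The smallest adjusted p among members was 0.203 in edgeR, for TNFRSF21 in the average of the clones, and 0.0616 in DESeq2, for BCL2A1 in the same contrast. DESeq2 gave no p-value for TNFRSF21 in any contrast, so its counts are over the other members.

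Without H9-A4, 6 members rose and 3 fell in the average of the other 6 clones against parental RKO, whereas leaving out any other single library gave 0 called members. The risen members were BCL2A1, CASP4, CASP10, TNFRSF10A, TNFRSF10D and BCL2L13, and the fallen members were TNFRSF21, BAD and BCL2L11. Across all genes of that fit 4.48% were called higher and 4.47% lower, so 6 higher and 3 lower of 35 members are to be read against a background that is itself broad. In the DIP2C+/- clones alone, 8 members rose, the same 6 with BAK1 and BBC3, and the same 3 fell, where 4.37% of all genes were called higher and 3.58% lower. In the DIP2C-/- clones 2 members rose, BCL2A1 and CASP4, and 2 fell, BAD and TNFRSF21, against 2.32% of all genes higher and 2.44% lower. With H9-A4, the smallest edgeR adjusted p of a member was 0.308 in DIP2C-/- and 0.373 in DIP2C+/-. A fit of the 4 parental and DIP2C-/- samples alone called 9 members in DIP2C-/-, with BCL2A1, BCL2L13, BIRC2, CASP10, CASP4 and TNFRSF10A higher and BAD, TNFRSF1A and TNFRSF21 lower, where 5.74% of all genes were called higher and 6.82% lower. In that 4-sample fit the spread came from 2 clones of shared origin and 2 parental samples that may not be separate cultures. Its p-values, here and where it is cited below, hold for these 4 samples only and cannot be extended to the genotype. The biological coefficient of variation in the fit of all groups was 0.2975 with H9-A4 and 0.2419 without it.

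Seen by ranges alone, TNFRSF21 was the only member below both parental samples in all 7 clones, and no tested member was above both in all 7. Of all genes tested, 5.56% lay below and 5.34% above in this way. In the 6 clones other than H9-A4, 8 members lay above both parental samples and 3 below, the same 11 that the test called in the DIP2C+/- clones, where 12.4% of all genes lay above and 11.5% below. H9-A4 departed from the other clones in each of these 11 members. It lay below both parental samples in the 8 members that were higher elsewhere, and above both in BAD and BCL2L11, which were lower elsewhere.

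**Figure D1:**
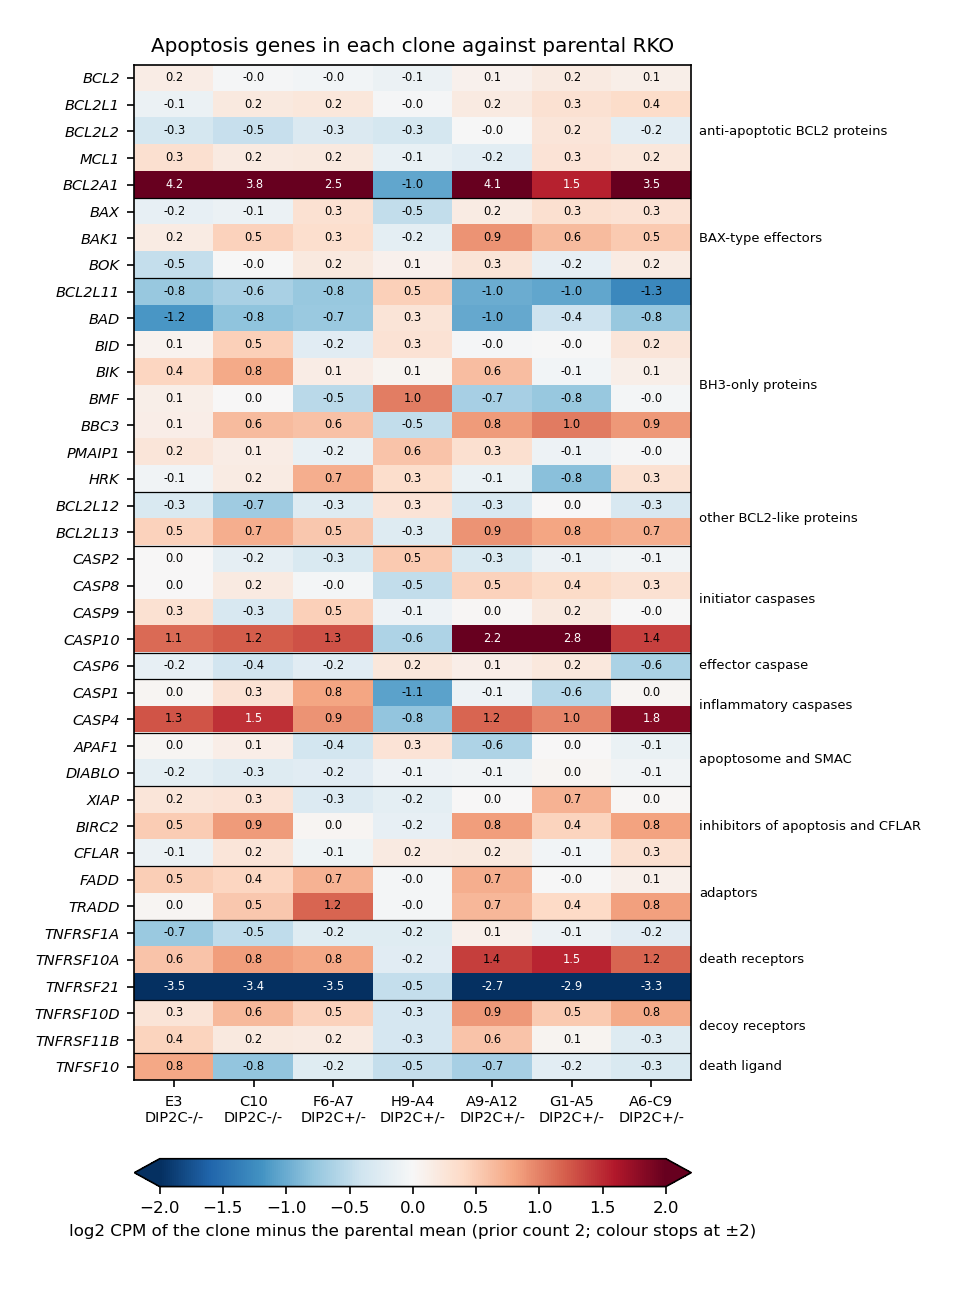
Difference in log2 CPM between each clone and the mean of the 2 parental samples (prior count 2), for the 38 members grouped by role, with 1 column per clone; red is higher and blue lower than parental RKO, and the colour stops at 2 in size. The rows of BCL2A1, CASP10, CASP4 and TNFRSF10A are red and the row of TNFRSF21 is dark blue in 6 clones, while the column of H9-A4 has the opposite colour or a paler one in these rows.

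The ligand TNFSF10, known as TRAIL, was at or near the detection limit. Its level was 0.3839 and 0.1746 CPM in parental RKO and 0.1066 to 0.5327 CPM in the clones. For scale, 3 counts correspond to 0.14 to 0.203 CPM of the unscaled library total. TNFSF10 was removed by the filter on low counts, as was the soluble decoy TNFRSF11B, known as osteoprotegerin, whose highest value was 0.2133 CPM.

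The death receptor with the widest change was TNFRSF21, also called DR6, which carries a cytoplasmic death domain. Its level was 318.7 and 319.1 CPM in the parental samples, which are almost equal. It was 28.19 CPM in E3 and 31.02 CPM in C10. The DIP2C+/- clones read 28.03 in F6-A7, 33.40 in A6-C9, 43.30 in G1-A5, 48.64 in A9-A12 and 228.9 CPM in H9-A4. The 6 clones other than H9-A4 thus form a narrow band far under parental RKO, and H9-A4 lies between that band and the parental samples. Without H9-A4, TNFRSF21 fell by 3.18 on the log2 scale in the average of the clones (SE 0.17, edgeR adjusted p 1.55e-06), which is 9.06-fold. With H9-A4 the estimate was -2.45 (SE 0.60, edgeR adjusted p 0.203). The direction held in 7 of 7 clones and both genotypes had it. The log2 change without H9-A4 was -3.43 in DIP2C-/- (SE 0.25, edgeR adjusted p 3.39e-05) and -3.06 in DIP2C+/- (SE 0.19, edgeR adjusted p 6.18e-06). Per kilobase of its canonical transcript, TNFRSF21 had the highest level of the death receptors in parental RKO, 88.7 CPM per kb against 35.7 for TNFRSF1A and 13.01 for TNFRSF10A. In the DIP2C-/- clones its mean of 8.24 CPM per kb was the lowest of these receptors, with TNFRSF1A at 23.2 and TNFRSF10A at 21.3 CPM per kb.

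In GRCh37, whose coordinates hg19 shares, TNFRSF21 spans 47199268 to 47277641 of chromosome 6. BCL2A1 spans 80253234 to 80263538 of chromosome 15, and CASP4 spans 104813593 to 104840093 of chromosome 11. All are on the minus strand. Their promoters are printed because these members had the largest fall, the largest rise and, among the members that rose, the highest level per kilobase, and because the letters differ in CpG sites, the dinucleotide CG at which DNA methylation occurs. The windows are the 250 bases before the annotated start in RefSeq, in the coordinates of GRCh38.p14, written 5′ to 3′ on the strand of the gene with each CG in capitals. The dinucleotide reads the same on both strands. Windows were found for 29 of the 38 members, and the median window of the 35116 in the whole table held 11 CpG sites.
TNFRSF21 (chr6:47309906-47310155, minus strand): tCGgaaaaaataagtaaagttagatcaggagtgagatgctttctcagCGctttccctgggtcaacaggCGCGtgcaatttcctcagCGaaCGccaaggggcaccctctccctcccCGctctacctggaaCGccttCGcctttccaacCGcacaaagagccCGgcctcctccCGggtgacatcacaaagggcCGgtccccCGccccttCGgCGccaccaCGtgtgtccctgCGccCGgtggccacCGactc
BCL2A1 (chr15:79971197-79971446, minus strand): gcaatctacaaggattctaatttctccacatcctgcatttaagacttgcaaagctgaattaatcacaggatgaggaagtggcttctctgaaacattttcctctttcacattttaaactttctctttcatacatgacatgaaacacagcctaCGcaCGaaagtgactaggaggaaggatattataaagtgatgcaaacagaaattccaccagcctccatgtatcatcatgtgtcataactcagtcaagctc
CASP4 (chr11:104968575-104968824, minus strand): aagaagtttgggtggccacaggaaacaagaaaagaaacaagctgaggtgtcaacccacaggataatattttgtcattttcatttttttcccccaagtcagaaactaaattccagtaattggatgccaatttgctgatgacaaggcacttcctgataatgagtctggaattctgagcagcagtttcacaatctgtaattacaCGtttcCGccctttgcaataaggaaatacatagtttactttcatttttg
The TNFRSF21 window held 20 CpG sites, and 32.4% of all windows held at least as many. The windows of BCL2A1 and CASP4 held 2 each, and 22.9% of all windows held 2 or fewer. These counts describe the letters only, and the methylation of these windows was not analysed here.

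TNFRSF10A, the TRAIL receptor also called DR4, moved the other way. It stood at 34.46 and 35.50 CPM in parental RKO, at 51.87 in E3 and 62.58 CPM in C10, and at 59.77 in F6-A7, 78.30 in A6-C9, 91.16 in A9-A12, 101.0 in G1-A5 and 29.83 CPM in H9-A4. The 6 clones other than H9-A4 were all above both parental samples, and the DIP2C+/- clones among them reached higher than the DIP2C-/- clones except for F6-A7. Without H9-A4 the log2 change of TNFRSF10A in the average was 1.06 (SE 0.20, edgeR adjusted p 0.00671), a 2.09-fold rise, against 0.95 (SE 0.36, edgeR adjusted p 0.327) with it. TNFRSF10D, or DcR2, a TRAIL receptor with a truncated death domain that does not signal death, was at 102.2 and 96.50 CPM in parental RKO and at 119.3 to 180.8 CPM in the 6 clones, with 78.29 CPM in H9-A4. The change in TNFRSF10D was 0.60 on the log2 scale (SE 0.15, edgeR adjusted p 0.0358), or 1.51-fold, without H9-A4, and 0.50 (SE 0.26, edgeR adjusted p 0.439) with it. So a signalling receptor and a decoy for the same ligand both rose in the fit without H9-A4, while the ligand itself was barely detected.

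TNFRSF1A, the main receptor for TNF, is described because its p-value between the genotypes was the smallest of the 35 members tested. The difference did not pass, and 0% of all genes were called in that contrast. TNFRSF1A was at 76.27 and 78.52 CPM in parental RKO and at 46.30 and 54.37 CPM in the DIP2C-/- clones, which share an origin and lay under all other samples. In the DIP2C+/- clones it ranged from 65.26 to 83.43 CPM with a median of 66.12, and 4 of the 5 were under both parental samples. The log2 difference of DIP2C+/- against DIP2C-/- was 0.48 (SE 0.15), with an unadjusted p of 0.00727 and an edgeR adjusted p of 0.878. Fitted on the 4 parental and DIP2C-/- samples alone, the change in TNFRSF1A was -0.63 (SE 0.14, edgeR adjusted p 0.0169).

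The adaptors that link these receptors to caspases did not pass the test. FADD ranged from 23.67 to 37.13 CPM between the parental samples alone, and its clones spanned 28.94 to 49.31 CPM. TRADD was at 4.223 and 4.714 CPM in parental RKO and at 4.347 to 10.17 CPM in the clones, 5 of which were above both parental samples.

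**Figure D2:**
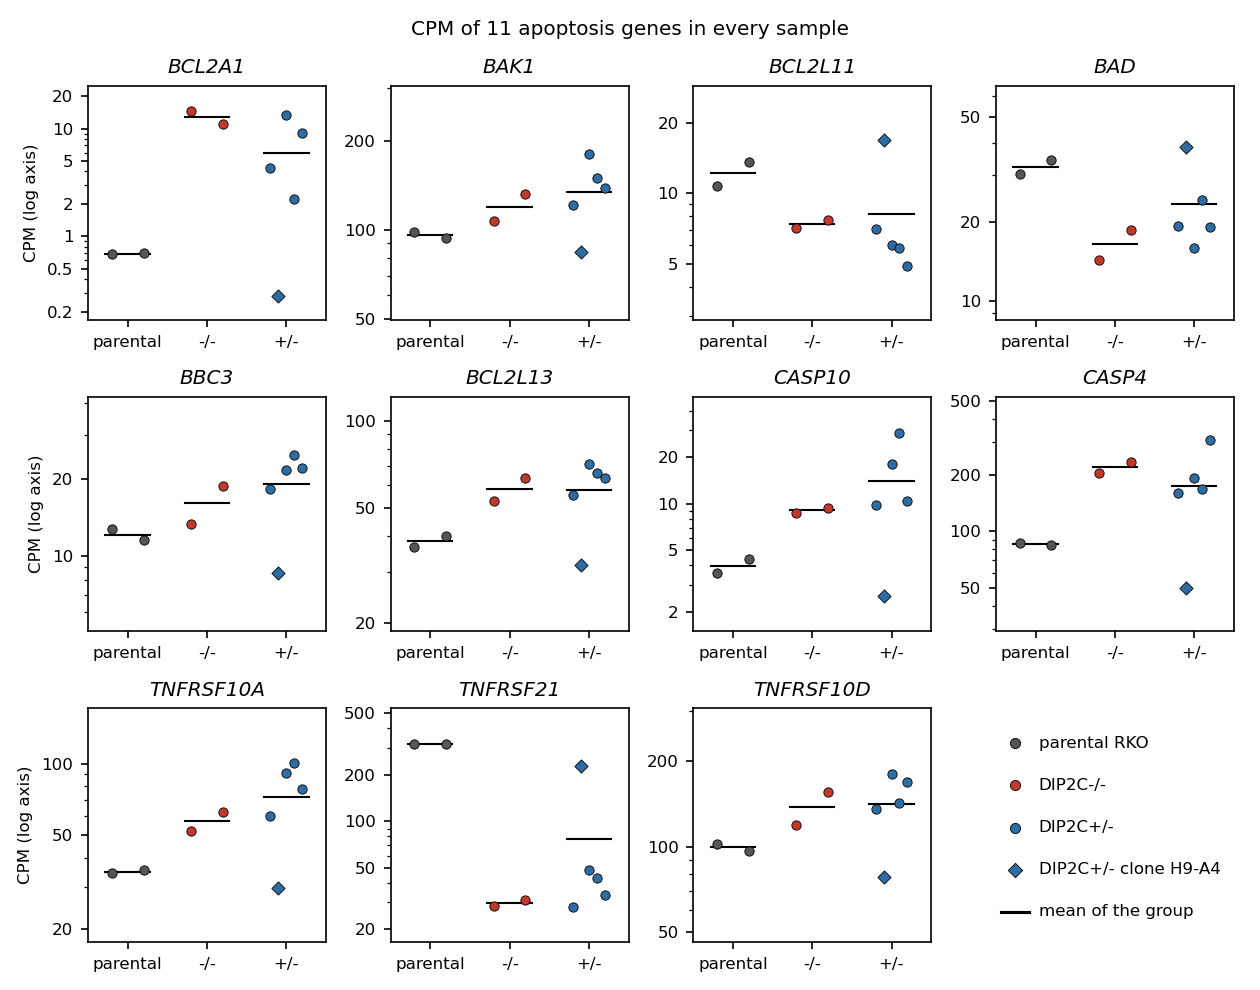
CPM on a log axis in every sample for the 11 members whose values are printed in full, with parental RKO in grey, DIP2C-/- in red and DIP2C+/- in blue, the bar at the mean of each group and H9-A4 drawn as a diamond. TNFRSF21 drops from 319 CPM to a band of 28.03 to 48.64 CPM in 6 clones, and the diamond lies on the parental side of the other DIP2C+/- clones in every panel.

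Of the initiator caspases only CASP10, which is recruited by FADD beside CASP8, was called. It stood at 3.583 and 4.365 CPM in parental RKO, at 8.766 in E3 and 9.328 CPM in C10, and at 9.756 in F6-A7, 10.39 in A6-C9, 18.16 in A9-A12, 28.83 in G1-A5 and 2.536 CPM in H9-A4. The spread within DIP2C+/- was wide, and G1-A5 and A9-A12 stood above every other sample. Without H9-A4 the log2 change of CASP10 was 1.78 in the average (SE 0.42, edgeR adjusted p 0.0241), or 3.43-fold, against 1.63 (SE 0.69, edgeR adjusted p 0.348) with it. In the DIP2C-/- contrast it did not pass in that fit (log2 change 1.18, SE 0.47, edgeR adjusted p 0.204), but it did in the fit of the parental and DIP2C-/- samples alone (1.17, SE 0.30, edgeR adjusted p 0.0338).

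CASP10 lies between CFLAR, a catalytically inactive relative of CASP8 that blocks its activation, and CASP8 itself on chromosome 2, with 6184 and 4014 bases between the annotated genes. Its neighbours had narrower ranges on the log2 scale. CASP8 was at 47.18 and 54.30 CPM in parental RKO and 35.79 to 69.96 CPM in the clones, and CFLAR at 38.69 and 39.05 CPM and 35.79 to 48.48 CPM. Like CASP10, CASP8 was highest in A9-A12 and G1-A5, at 69.96 and 66.04 CPM, and lowest in H9-A4. CFLAR was highest in A6-C9 and lowest in E3. The log2 difference of the highest clone from the parental mean was 0.47 for CASP8 and 0.32 for CFLAR, against 2.83 for CASP10. CASP2 and CASP9, which start caspase cascades within the cell, were not called. CASP2 was 79.00 to 98.70 CPM in 6 clones and 140.3 CPM in H9-A4, with parental values of 98.96 and 96.38 CPM. CASP6, the effector caspase of the list, ran from 15.32 to 27.86 CPM in the clones, a range that contained both parental values of 21.71 and 25.90 CPM.

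The inflammatory caspase CASP4, which senses bacterial lipopolysaccharide in the cytosol and triggers pyroptosis rather than apoptosis, rose in both genotypes without H9-A4. It was at 86.55 and 84.92 CPM in parental RKO, at 205.3 in E3 and 235.2 CPM in C10, and at 160.6 in F6-A7, 168.1 in G1-A5, 192.0 in A9-A12, 307.3 in A6-C9 and 49.51 CPM in H9-A4. The 6 clones other than H9-A4 were above both parental samples without overlap, and H9-A4 was under both. The log2 change of CASP4 without H9-A4 was 1.30 in the average (SE 0.24, edgeR adjusted p 0.00640), which is 2.47-fold, against 1.13 (SE 0.48, edgeR adjusted p 0.350) with it. Taken by genotype, it was 1.36 in DIP2C-/- (SE 0.27, edgeR adjusted p 0.0168) and 1.27 in DIP2C+/- (SE 0.25, edgeR adjusted p 0.00985). Per kilobase, CASP4 had the highest level of the caspase members in parental RKO, 66.2 CPM per kb, above CASP2 at 23.9, CASP8 at 19.1, CASP6 at 14.6, CASP9 at 2.76 and CASP10 at 0.701 CPM per kb. CASP1, which activates interleukin-1 beta and lies 56030 bases from CASP4, was between 0.1208 and 0.7188 CPM in every sample and was removed by the filter.

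Among the anti-apoptotic BCL2 proteins, the change was in the least abundant member. BCL2A1, an inducible BCL2 relative best known from blood cells, was at 0.6825 and 0.6984 CPM in parental RKO. It was at 14.63 in E3 and 10.98 CPM in C10, and at 2.214 in G1-A5, 4.313 in F6-A7, 9.135 in A6-C9, 13.51 in A9-A12 and 0.2818 CPM in H9-A4. The 6 clones other than H9-A4 were above both parental samples, but they differed widely among themselves, from 2.214 to 14.63 CPM. The parental and H9-A4 values rest on few counts, since 3 counts are 0.14 to 0.203 CPM of the unscaled library total. The size of the fold and the place of H9-A4 below the parental samples are therefore uncertain. The log2 change of BCL2A1 without H9-A4 was 3.70 in the average (SE 0.70, edgeR adjusted p 0.00792), a 13.02-fold rise, against 3.44 (SE 1.14, edgeR adjusted p 0.304) with it. It was called in both genotypes without H9-A4, at 4.24 in DIP2C-/- (SE 0.77, edgeR adjusted p 0.0103) and 3.43 in DIP2C+/- (SE 0.71, edgeR adjusted p 0.0139). The blood cell markers summed to 1.408 to 2.445 CPM in parental RKO and to 1.16 to 2.259 CPM in the 7 clones.

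The more abundant anti-apoptotic members had narrower ranges. Per kilobase in parental RKO, BCL2L1 (BCL-XL) had 127.9 and MCL1 91.2 CPM per kb, above BCL2L2 at 14.5, BCL2 at 1.25 and BCL2A1 at 0.885 CPM per kb. In the DIP2C-/- clones BCL2A1 reached 16.4 CPM per kb, above BCL2L2 at 10.96 and BCL2 at 1.29 but still far below BCL2L1 at 132.3 and MCL1 at 108.1 CPM per kb. BCL2L1 was at 328.5 and 330.0 CPM in parental RKO and 303.1 to 422.4 CPM in the clones. MCL1, a short-lived protein whose parental values were 323.5 and 397.1 CPM, ranged from 310.3 to 448.7 CPM. BCL2, the founding member of the family, kept within 7.809 and 9.537 CPM in all 7 clones, inside the span of 6.868 to 10.36 CPM between the parental samples. None of BCL2, BCL2L1, BCL2L2 and MCL1 was called with or without H9-A4.

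The effectors that perforate the mitochondrial membrane differed among themselves. BAK1 was at 98.49 and 93.53 CPM in parental RKO, at 107.3 in E3 and 131.9 CPM in C10, and at 121.1 in F6-A7, 138.6 in A6-C9, 149.1 in G1-A5, 179.9 in A9-A12 and 84.01 CPM in H9-A4. The rise of BAK1 was called in DIP2C+/- without H9-A4 (log2 change 0.62, SE 0.17, edgeR adjusted p 0.0480) but not in the average of the clones (0.52, SE 0.16, edgeR adjusted p 0.0720) or in DIP2C-/- (0.32, SE 0.19, edgeR adjusted p 0.418). With H9-A4 the average was 0.44 (SE 0.24, edgeR adjusted p 0.446). Part of BAK1 overlaps GGNBP1 on the opposite strand, and whether the counting used strand is not given in the sources used here. BAX differed more between the parental samples, at 79.81 and 112.3 CPM, than BAK1 did, and 6 clones at 84.75 to 117.7 CPM overlapped that span. BOK ran from 35.40 to 58.52 CPM in the clones around parental values of 47.60 and 50.75 CPM.

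The BH3-only proteins, which bind and neutralise the anti-apoptotic members or activate BAX and BAK1, went in both directions. BAD, whose activity is held back by phosphorylation downstream of growth factor signals, was at 30.33 and 34.46 CPM in parental RKO and at 14.34 in E3 and 18.55 CPM in C10. In the DIP2C+/- clones it was at 15.88 in A9-A12, 19.14 in A6-C9, 19.20 in F6-A7, 24.14 in G1-A5 and 38.60 CPM in H9-A4. Without H9-A4, BAD fell by 0.81 on the log2 scale (SE 0.18, edgeR adjusted p 0.0182), or 1.75-fold, against a change of -0.62 (SE 0.28, edgeR adjusted p 0.381) with it, and it was called in both genotypes. BAD overlaps GPR137 on the opposite strand, with the same limit as for BAK1. BCL2L11, or BIM, an activator of BAX that binds all anti-apoptotic members, was at 10.75 and 13.62 CPM in parental RKO and at 7.119 in E3 and 7.675 CPM in C10. Its values in DIP2C+/- were 4.882 in A6-C9, 5.833 in G1-A5, 6.038 in A9-A12, 7.086 in F6-A7 and 16.91 CPM in H9-A4. The clones other than H9-A4 were all lower than parental RKO, and H9-A4 was the highest of all samples. Without H9-A4 the fall of BCL2L11 was called in the average (log2 change -0.93, SE 0.22, edgeR adjusted p 0.0257, 1.91-fold), where the estimate with it was -0.62 (SE 0.41, edgeR adjusted p 0.530).

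BBC3, or PUMA, a transcriptional target of p53, was the BH3-only gene that rose. It stood at 12.67 and 11.52 CPM in parental RKO, at 13.32 in E3 and 18.87 CPM in C10, and at 24.82 in G1-A5, 22.23 in A6-C9, 21.83 in A9-A12, 18.23 in F6-A7 and 8.534 CPM in H9-A4. E3 was only just above the parental samples. The call was for DIP2C+/- without H9-A4 (log2 change 0.85, SE 0.21, edgeR adjusted p 0.0318), while the average missed the threshold (0.70, SE 0.20, edgeR adjusted p 0.0520), as did DIP2C-/- (0.41, SE 0.24, edgeR adjusted p 0.394). With H9-A4 the average of BBC3 was 0.59 (SE 0.34, edgeR adjusted p 0.481). PMAIP1, or NOXA, another target of p53, did not pass, with 18.23 to 25.29 CPM in 6 clones, 30.15 CPM in H9-A4 and parental values of 20.52 and 20.02 CPM. BID, which caspase-8 cleaves to link the extrinsic to the intrinsic route, was at 53.45 and 59.31 CPM in parental RKO and 48.32 to 78.73 CPM in the clones. BIK, BMF and HRK were all below 6 CPM in every sample and were not called.

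BCL2L13, a mitochondrial BCL2-like protein with a role in mitophagy, rose without H9-A4. It was at 36.60 and 40.16 CPM in parental RKO, at 52.79 in E3 and 63.80 CPM in C10, and at 55.56 in F6-A7, 63.51 in A6-C9, 66.04 in G1-A5, 71.35 in A9-A12 and 31.88 CPM in H9-A4. The 6 clones lay close together, clear of the parental samples. The log2 change of BCL2L13 was 0.70 without H9-A4 (SE 0.15, edgeR adjusted p 0.0138), or 1.62-fold, against 0.59 (SE 0.26, edgeR adjusted p 0.359) with it. BID, whose annotated gene ends 3282 bases from BCL2L13 on chromosome 22, was not called. BCL2L12 was lower than both parental samples in 5 clones, at 23.19 to 31.65 CPM against 40.61 and 35.62 CPM, and was not called.

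Downstream of the mitochondrion, APAF1 and DIABLO were not called. APAF1 ranged from 27.44 to 50.68 CPM in the clones around parental values of 39.03 and 45.34 CPM. DIABLO was at 45.09 and 45.86 CPM in parental RKO and at 38.16 to 46.92 CPM in the clones, of which 6 were slightly under both parental samples. Of the inhibitors of apoptosis, BIRC2 (cIAP1), a ubiquitin ligase of TNF receptor complexes, was above both parental samples in 5 clones. It was at 41.03 and 32.94 CPM in parental RKO and at 37.89 to 66.52 CPM in the 6 clones, with a log2 change of 0.60 (SE 0.22, edgeR adjusted p 0.120) without H9-A4. In the fit of the parental and DIP2C-/- samples alone BIRC2 passed (0.67, SE 0.17, edgeR adjusted p 0.0337). XIAP, the direct inhibitor of caspases, ran from 41.79 to 81.15 CPM in the clones and was at 57.20 and 44.18 CPM in parental RKO. In all, the 24 tested members outside the 11 named in full had log2 changes between -0.28 and 0.56 in the average with H9-A4, and between -0.34 and 0.64 without it, where their smallest edgeR adjusted p was 0.120.

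**Figure D3:**
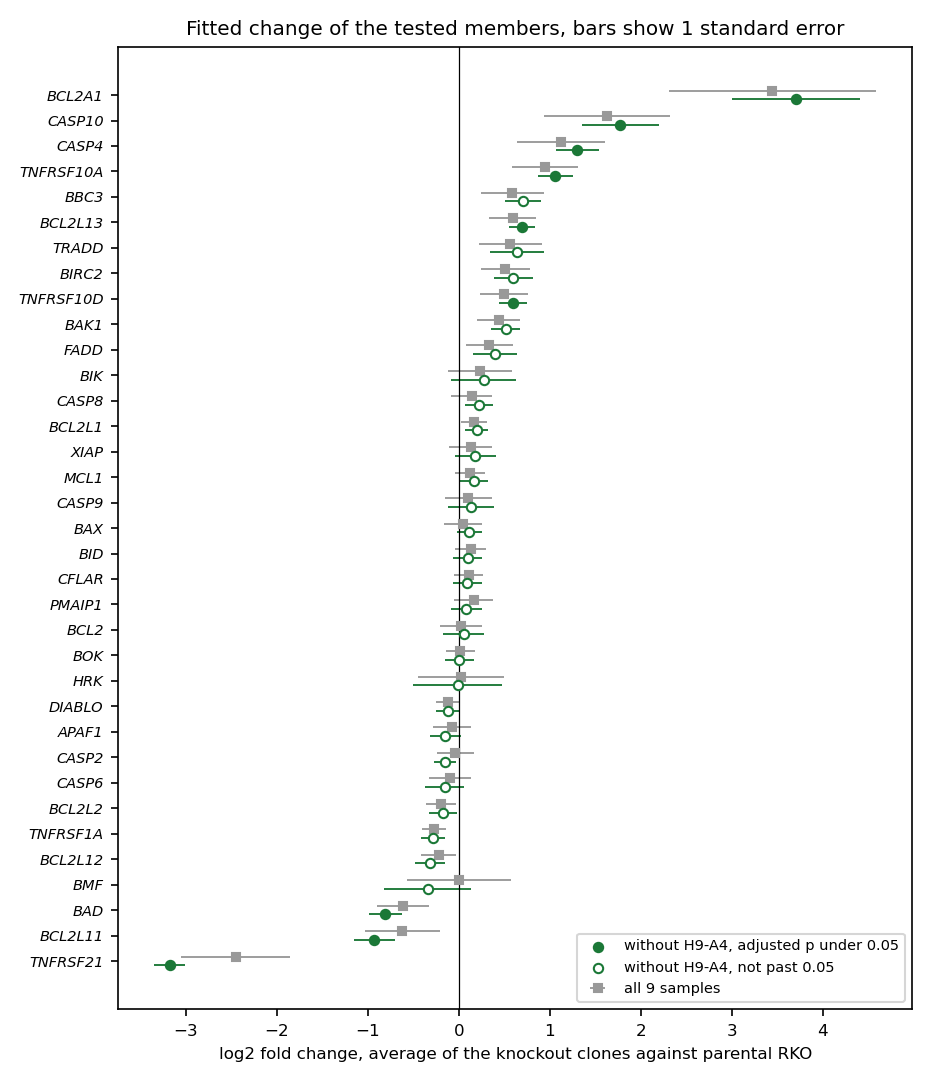
Log2 fold change of the 35 tested members in the average of the knockout clones against parental RKO, from edgeR, with 1 standard error as bars, for all 9 samples (grey squares) and without H9-A4 (circles, filled where the adjusted p is under 0.05). The filled circles are the 6 higher and 3 lower members, and for these 9 members the grey squares lie nearer to 0 with wider bars.

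The pro- and anti-apoptotic sides were then set beside each other in each clone. The median log2 difference of the 10 anti-apoptotic members from the parental mean was 0.25 in E3 and 0.22 in C10, and among the DIP2C+/- clones 0.29 in G1-A5, 0.27 in A6-C9, 0.19 in A9-A12 and 0.11 in F6-A7. It was -0.19 in H9-A4, where 9 of the 10 members were below the parental mean. In the other clones 6 to 9 of the 10 were above it. The median of the 24 pro-apoptotic members was nearer to 0, from -0.10 in F6-A7 to 0.12 in A9-A12, with 11 to 15 members above the parental mean and 9 to 13 below. Over all genes tested the median lay between -0.01 and 0.02, with 7650 to 7993 of 15532 genes above the parental mean. The anti-apoptotic median was thus above the pro-apoptotic one in 6 clones and below it in H9-A4. These are descriptions of a short list with no test, and they depend on which genes were made members. Of the pathway genes outside the members, the receptors FAS and TNFRSF10B lay above both parental samples in the 6 clones other than H9-A4. The inhibitors of apoptosis BIRC5 and NAIP lay below both in the same clones, which runs against this contrast. BIRC3, another such inhibitor, was above both in 5 clones. The medians were not recomputed with these genes. The sides include TNFRSF11B and TNFSF10, which were too low to test. Every clone was set against the same parental mean. Between the parental samples themselves, the median absolute log2 difference of the members was 0.177.

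By calls in the average without H9-A4, the pro-apoptotic side had 2 members higher (CASP10 and TNFRSF10A) and 3 lower (BAD, BCL2L11 and TNFRSF21) of 23 tested, where 4.48% of all genes were called higher and 4.47% lower, and the anti-apoptotic side had 2 higher (BCL2A1 and TNFRSF10D) and 0 lower of 9 tested. Both called members on neither side, BCL2L13 and CASP4, were higher. Other apoptosis genes called in the same fit were not members and are not in this tally. Among them FAS, TNFRSF10B, RIPK1 and PEA15 were higher and BNIP3L was lower.

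Between the genotypes no member was called. With all 9 samples 0% of all genes were called in DIP2C+/- against DIP2C-/-, and the smallest edgeR adjusted p among members was 0.878. Without H9-A4 the share was again 0%, with 3 members at an unadjusted p under 0.05 and a smallest edgeR adjusted p of 0.679. The log2 differences of DIP2C+/- from DIP2C-/- without H9-A4 were 0.37 (SE 0.20) for TNFRSF21, -0.81 (SE 0.53) for BCL2A1, 0.89 (SE 0.41) for CASP10 and 0.53 (SE 0.20) for TNFRSF10A. For CASP4 the difference was -0.09 (SE 0.23). None of these differences was called with 2 and 4 clones, and the smallest difference that could be detected was not estimated.

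Outside the members, a list of other genes of the apoptosis pathway was read in the same fits. Of its 44 genes in the files, 34 were tested, and 0 were called with all 9 samples, with 8 at an unadjusted p under 0.05 in the average of the clones in edgeR. Without H9-A4, 5 rose and 1 fell, against the same 4.48% and 4.47% of all genes. TNFRSF10B, the other signalling TRAIL receptor (DR5), was at 97.98 and 105.6 CPM in parental RKO, at 208.2 to 311.3 CPM in the 6 clones and at 80.11 CPM in H9-A4, a log2 change of 1.22 without H9-A4 (SE 0.16, edgeR adjusted p 9.12e-04). FAS, the receptor of FAS ligand, was at 22.44 and 18.57 CPM, at 35.69 to 54.20 CPM and at 13.73 CPM in the same order, with a change of 1.06 (SE 0.19, edgeR adjusted p 0.00501). RIPK1, a kinase of TNF receptor complexes, and PEA15, a death effector domain protein that binds FADD, rose by 0.96 and 0.64 on the log2 scale (edgeR adjusted p 0.0153 and 0.0236). BNIP3L, a BH3-like mitophagy receptor, fell by 0.58 (edgeR adjusted p 0.0416). With H9-A4 the edgeR adjusted p of these named genes, TNFRSF10B, FAS, RIPK1, PEA15 and BNIP3L, was 0.317 to 0.356. In each of the 4 higher genes named here H9-A4 was below both parental samples. TNFRSF10B, FAS and BNIP3L overlap RHOBTB2, ACTA2 and PNMA2 on the opposite strand, with the same limit as for BAK1.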

How the data were processed

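RNA of 2 parental RKO samples, 2 DIP2C-/- clones and 5 DIP2C+/- clones was sequenced on the Ion Proton system. The authors aligned reads to hg19 with TopHat2 2.0.4 and quantified genes with Cufflinks, listed as 2.2.1 in the submitters' processing notes, while the methods name another version. Each deposited file holds 1 sample's estimated counts (expected counts, not normalized) per gene symbol. How the authors turned Cufflinks output into counts is not given in the sources used here. Within a sample, 98.1% to 98.6% of the low values were whole multiples of 1 step of 0.711 to 1.11, so an added fit divided the values by the step.

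Values were rounded, where whole counts had been assumed. Genes were kept by filterByExpr, scaled by TMM and tested in edgeR 4.0.16 (R 4.3.3) by the quasi-likelihood F test with 1 coefficient per genotype and no covariate, since the labels give no batch. The average weights each clone equally. CPM are relative to the TMM-scaled total. On the total before that scaling, 3 counts are 0.14 to 0.203 CPM. Log2 CPM of single clones used a prior count of 2. Standard errors are the size of the log2 change over the square root of F. Levels per kilobase divide CPM by the canonical transcript length in GENCODE 44 mapped to GRCh37, which need not be the isoform expressed. Replicates differed by more than sampling noise, with a chi-square per degree of freedom of 20.7 to 136.7, so each counted as 1 sample.

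Members and lists were chosen with earlier results of these data known. Members were printed in full when called against parental RKO with all 9 samples or without H9-A4, or when the average log2 change was at least 1 in size. Alternatives were DESeq2 1.42.0, its size factors in edgeR, library size scaling, other count filters, a fit restricted to the compared groups, leaving out each sample, division by the step and a prior count of 0.5. The scripts were tested on simulated data. The methylation arrays of the study were not analysed here. A gene of the pathway list is counted but not reported by name here.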

Additional observations from a re-analysis of the deposited data

Results flagged for a closer look

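Both flagged values belong to the DIP2C+/- clone H9-A4. TNFRSF21 was at 228.9 CPM in H9-A4, the highest of the 5 DIP2C+/- clones, and on the log2 CPM scale its gap to the next clone was 0.738 of the whole range of the group, above the critical value of 0.71 of Dixon's test for 5 samples. BAX was at 67.26 CPM in H9-A4, the lowest of the 5, with a gap of 0.8197 of the range on the same log2 scale. All 38 members were examined in this group, and chance alone flags about 1 in 20 groups, which is 1.9 members here.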

How the results depend on the processing

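Apart from leaving out H9-A4, a single alternative called members. Fitting only the compared groups called 9 members in the DIP2C-/- contrast, where 1807 of all genes were called against 1. In that setting all genes called were 8 in DIP2C+/- and 1 between the genotypes, and DIP2C was at -1.72 in DIP2C-/- and now passed. DESeq2's Wald test called 295 genes in DIP2C-/-, 191 in DIP2C+/-, 304 in the average and 6 between the genotypes, and DIP2C passed in DIP2C-/- (-1.72, from -1.71) and in the average (-0.92). With no filter on low counts 3 genes were called in DIP2C-/-, and with at least 10 counts in every sample 0, 8 and 11 in the DIP2C-/-, DIP2C+/- and average contrasts. Scaling by library size only moved the median of the pro-apoptotic side in G1-A5 from -0.01 to -0.12. The cause of these shifts was not tested.

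Leaving out 1 sample in turn gave 1 to 733 genes called in DIP2C-/-, 1 to 1224 in DIP2C+/-, 1 to 1378 in the average and 0 to 3 between the genotypes. Members called ranged from 0 to 4 in DIP2C-/-, 0 to 11 in DIP2C+/- and 0 to 9 in the average, and every highest value was the fit without H9-A4, except between the genotypes. Without parental-1 or parental-2, 1 and 2 of all genes were called in the average, against 28. DIP2C ranged from -1.96 to -1.52 in DIP2C-/-, from -0.71 to -0.48 in DIP2C+/- and from -1.04 to -0.75 in the average. Among these fits it passed only without H9-A4, in all 3 contrasts. No change of the 11 members printed in full reversed under the alternatives run. No paired analysis was possible because the labels number the parental samples alone, and the numbers of the clones are accession order. With the totals of 14772593 to 21486483 counts, TNFSF10, TNFRSF11B and CASP1 were too low to test.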
